A study of Mus musculus with 4 samples.

Results

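The genes described here encode 10 transcription factors of blood progenitors and of the red cell and platelet lineages: Myb, Erg, Gata1, Gata2, Klf1, Tal1, Lmo2, Nfe2, Runx1 and Meis1. They were chosen by name, and every probe set annotated with one of these symbols was taken, which gave 21 of the 45101 probe sets of the array and 10 of 18193 named genes. Expression was measured with 1 array at each of 4 times while marrow of female C57Bl/6J mice aged 12 weeks was cultured towards osteoclasts, the multinucleated cells that resorb bone. The day 1 array holds marrow on the day it was taken. The day 4 array holds marrow kept for 3 days in α-MEM with 10% FBS and 10 nM vitamin D3, without added M-CSF or RANKL. The day 5 and day 7 arrays hold cells that then received 20 ng/ml M-CSF, a macrophage growth factor, and 40 ng/ml RANKL, the cytokine of osteoclast formation, with vitamin D3 still at 10 nM. The labels give 0, 3, 4 and 6 days of differentiation for the same arrays. The labels give neither the number of mice behind a sample nor whether the samples come from 1 culture, and all samples are labelled as primary osteoclasts, fresh marrow included.

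Myb keeps progenitors dividing, Runx1 is needed for the first blood stem cells, and Erg and Meis1 maintain stem cells. Gata2 acts in stem cells, mast cells and early megakaryocytes, and gives way to Gata1 as red cells and megakaryocytes mature. The proteins of Tal1 and Gata1 are joined through Lmo2 in one DNA-binding complex, Klf1 then drives globin genes, and Nfe2 drives the late genes of platelet formation. Osteoclasts descend from the monocyte branch of the same marrow progenitors.

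Values are signal intensities on a linear scale. The floor was 32.4, which is the median signal over the 4 arrays, and anything below it was raised to it. Where only 1 array of a comparison was above the floor, the difference is a bound, written as at least N-fold. A gene counts as higher or lower from 2-fold upwards. The successive comparisons are the first step (day 4 over day 1), the middle step (day 5 over day 4) and the last step (day 7 over day 5). With 1 array per group there is no replicate, no test and no error for a single value. For scale, 18 spiked control probe sets had an SD between arrays of 0.07 to 0.17 on the log2 scale, and probe sets of the same gene had a pooled SD of 0.26 on day 7 over day 5 to 0.53 on day 7 over day 1. Neither measures the variation between cultures. The median signal was 38.3, 34.3, 32.3 and 26.2 on days 1, 4, 5 and 7. Of 14 macrophage and osteoclast genes 10, 13, 14 and 14 were above the floor on the same days, and their summed signal was 37528, 73226, 88303 and 97620. The calcitonin receptor gene Calcr, which marks osteoclasts, was under the floor on days 1 and 4.

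Over the culture, from day 1 to day 7, 6 of the 10 factors were lower by 2-fold or more and 0 were higher. The 6 were Myb (at least 124-fold), Nfe2 (at least 103-fold), Erg (at least 12.4-fold), Gata1 (at least 9.76-fold), Klf1 (at least 7.34-fold) and Tal1 (4.81-fold). Among all 11967 genes measured in that comparison, 16.2% were called lower and 12.7% higher. Lmo2, Runx1 and Gata2 were within 2-fold on their brightest probe sets. Meis1 was at least 1.76-fold lower, a bound that does not reach 2-fold. The median log2 difference of the 10 factors, bounds included, was -2.57, against 0.006 for all genes.

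**Figure D1:**
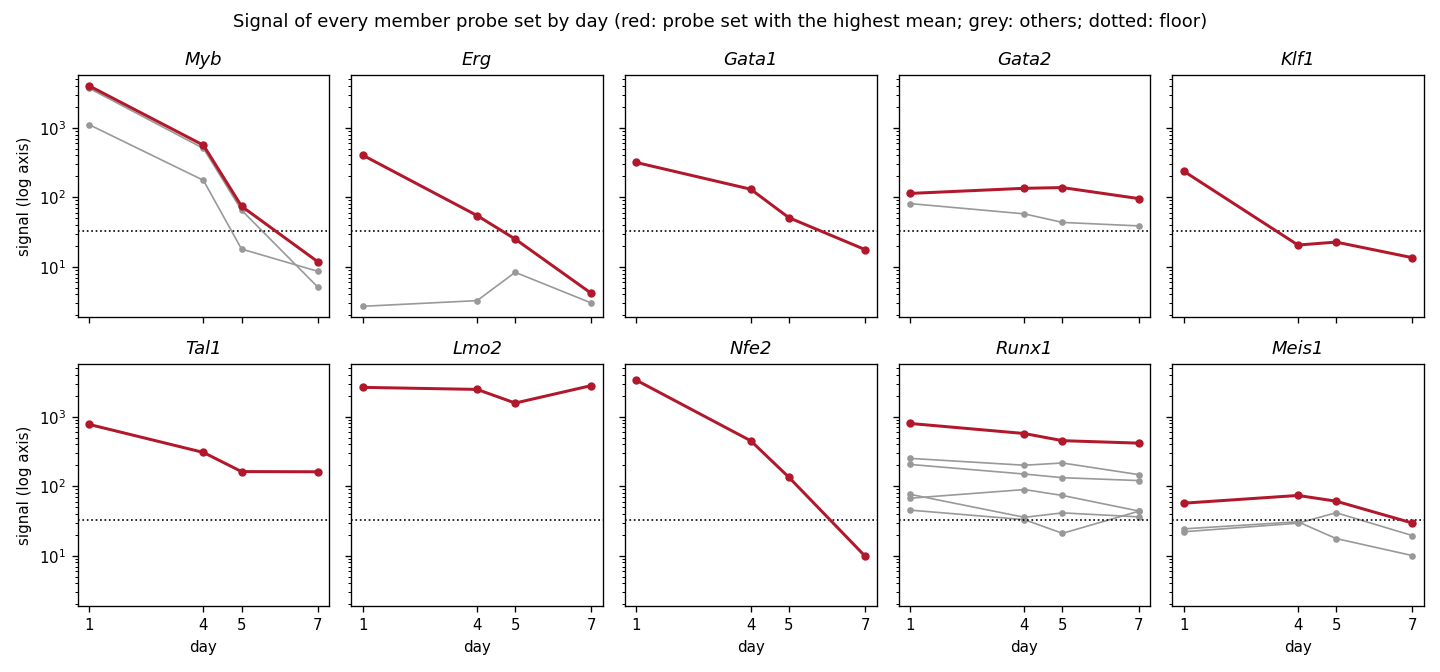
Signal of all 21 probe sets (log axis) against day of culture, with 1 array per day; red marks the probe set with the highest mean, grey the others of the gene, and the dotted line the floor of 32.4. Myb and Nfe2 start at 4014 and 3353 and end under the floor, whereas Lmo2 lies between 1573 and 2809 on all 4 arrays.

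Among the progenitor factors, Myb read 4014, 561, 74.3 and 11.8 on days 1, 4, 5 and 7. Each array was lower than the one before it, and only the last was under the floor. Myb was 7.15-fold lower after the first step, which spans 3 days of culture, and 7.55-fold lower again after the middle step, which spans 1. A second Myb probe set read 3708, 505, 65.2 and 5.11, and the last 1110, 175, 18.0 and 8.61. All 3 were lower on day 4 than on day 1 and lower again on day 5, and all were under the floor on day 7. In the last step Myb was at least 2.29-fold lower, a bound set by the floor, and the mean over its probe sets gave -0.74 on the log2 scale, short of 2-fold.

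Erg, a member of the ETS family, read 404, 54.6, 25.1 and 4.14 on days 1, 4, 5 and 7. It was 7.39-fold lower on day 4 and was under the floor from day 5 on. Its other probe set lay between 2.70 and 8.33, under the floor on all 4 arrays, so Erg rests on 1 probe set.

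Runx1 was measured by 6 probe sets. The one with the highest mean read 800.3, 573, 452 and 417, lower on each later array, for a log2 difference of -0.94 on day 7 over day 1. The smallest difference was that of the last step, -0.12, which became 0.06 after quantile normalization and after median scaling. All 6 Runx1 probe sets were lower on day 7 than on day 1, with log2 differences between -0.05 and -1.08, of which the smallest is less than the 0.17 by which quantile normalization placed the median of all genes above 0. In the first step 5 of the 6 were lower and 1 was higher, and in the middle step 3 were lower and 2 higher of the 5 that could be compared without a floor value. Runx1 was above the floor throughout, and day 7 was 1.92-fold below day 1 on its brightest probe set.

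Meis1, a homeobox gene of stem cells, read 57.0, 73.7, 60.9 and 29.5. It was highest on day 4 and under the floor on day 7. The first step was 1.29-fold higher, the middle step 1.21-fold lower and the last at least 1.88-fold lower. On the log2 scale the last step was -0.91, and -1.04, past 2-fold, with a floor at the 25th percentile of all values. It was -0.73 after quantile normalization and -0.42 with the mean over probe sets, both short of 2-fold. With a floor at the 60th percentile it had no value. From day 1 to day 7 the log2 difference was -0.81, or -0.36 after quantile normalization and -0.27 with the mean over probe sets. One of the other Meis1 probe sets was above the floor only on day 5, at 41.6, and the last was under the floor on all 4 arrays.

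Among the factors of the GATA and TAL1 complex, Gata1 read 317, 131, 50.9 and 17.7. Each array was lower than the one before and the last was under the floor. It was 2.42-fold lower after the first step, a smaller difference than the 7.15-fold of Myb, and 2.56-fold lower again after the middle step, where Myb differed by 7.55-fold.

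Gata2 read 114, 135, 138 and 95.8, with day 5 highest and day 7 lowest. The whole range of this probe set, the brighter one, was 1.44-fold. Its second probe set read 81.2, 57.7, 43.5 and 38.8, lower on each later array and 2.09-fold lower on day 7 than on day 1. The probe sets of Gata2 had opposite directions in the first step, 0.25 and -0.49 on the log2 scale, so no direction is given for it. From day 1 to day 7 the brighter one gave -0.25, which was 0.19 after quantile normalization.

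Tal1 read 776, 306, 162 and 161. It was 2.53-fold lower on day 4 and 1.89-fold lower again on day 5, and read alike on both arrays with M-CSF and RANKL. The log2 difference between those 2 arrays was -0.01, which was 0.23 after quantile normalization and 0.17 after median scaling. Tal1 was the only one of the 6 factors called lower over the culture that was above the floor on all 4 arrays.

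Lmo2, which encodes the bridging protein, read 2646, 2472, 1573 and 2809. Day 5 was lowest and day 7 highest, 1.79-fold apart. That last step had a log2 difference of 0.84, and of 1.01 after median scaling, which passes 2-fold. Between days 1 and 7 the log2 difference was 0.09, or -0.10 after quantile normalization. Within the complex, Gata1 and Tal1 were lower on day 7 while Lmo2 was within 2-fold of its level in fresh marrow.

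Among the factors of late maturation, Klf1 read 238 on day 1 and 20.5, 22.7 and 13.5 on the later arrays. It was above the floor in fresh marrow only. The first step is a bound of at least 7.34-fold, and no later difference was measurable.

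Nfe2 read 3353, 451, 135 and 9.87. It was lower by 7.43-fold, 3.34-fold and at least 4.16-fold at the 3 successive steps. Of the 10 factors, Nfe2 and Myb were lower by 2-fold at all 3 steps, as were 0.466% of the 12438 genes above the floor on any array. Genes near the floor on day 1 are among the 12438 but could not meet this rule. With a floor at the 60th percentile of all values, the last step of Nfe2 and Myb was -0.97 and -0.11 on the log2 scale, short of 2-fold. Klf1 and Nfe2, as well as Gata1, Tal1 and Lmo2, each rest on 1 probe set.

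**Figure D2:**
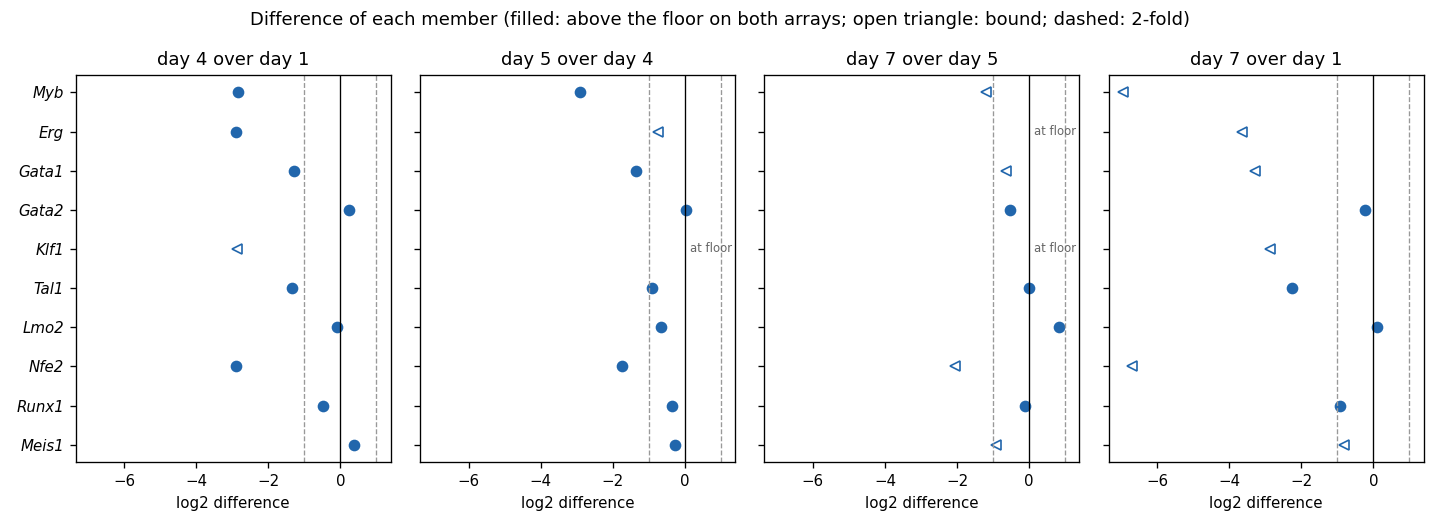
Log2 difference of each factor in 4 comparisons of 1 array with 1 array; filled circles are above the floor on both arrays, open triangles are bounds, and dashed lines mark 2-fold. Myb, Erg, Klf1 and Nfe2 lie between -2.84 and -2.89 on day 4 over day 1, Gata1 and Tal1 at -1.28 and -1.34, and the other 4 factors between -0.48 and 0.37.

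The first step preceded M-CSF and RANKL. In it 6 of 10 factors were lower and 0 higher, where 8.65% of 11981 genes were called lower and 10.0% higher. The median log2 difference was -1.31, against 0.06 for all genes. Erg, Klf1, Myb and Nfe2 were lower by 7.15-fold or more, Gata1 by 2.42-fold and Tal1 by 2.53-fold.

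In the middle step, the first with both cytokines, 3 of 9 measured factors were lower (Myb, Nfe2 and Gata1) and 0 were higher. Over all 11804 genes 4.04% were called lower and 2.02% higher, and the medians were -0.75 for the factors and 0.06 for all genes. No culture without the cytokines was arrayed on day 5, so their effect and that of time cannot be told apart.

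In the last step 2 of 8 measured factors were lower, Nfe2 and Myb, both as bounds, and 0 were higher, where 5.84% of 11611 genes were called lower and 0.853% higher. This comparison depends on how the arrays are scaled. With the deposited values the median log2 difference was -0.11 over all genes and -0.59 over the factors, and 99 genes were higher and 678 lower. Quantile normalization gave medians of 0.03 and -0.45 with 195 genes higher and 423 lower. Median scaling gave 0.06 and -0.47 with 183 higher and 491 lower. The factors' median lay below that of all genes under each of the 3 scalings. From day 1 to day 7, 43.9% of the called genes were higher with the deposited values, 56.2% after quantile normalization and 53.1% after median scaling, and the factors gave 6 lower and 0 higher under each.

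The promoters of 5 of the 6 factors that were lower on day 4 (Klf1, Gata1, Tal1, Erg and Myb; not Nfe2) are shown because these genes were lower at the same step, and that of Gata2 because its brighter probe set varied by 1.44-fold in all. RefSeq (GRCm38.p6) gave 13 start sites for 8 of the 10 genes, all but Lmo2 and Nfe2. Shown are the 250 bases before a start, in the direction of the gene, with capitals for matches on either strand to the GATA motifs AGATAA or TGATAA or AGATAG or TGATAG, to the CACC box CACACCC, which Klf1 and related factors bind, to the NF-E2 and AP-1 core TGAGTCA, and to the RUNX core TGTGGT. Erg, Tal1 and Gata2 have several starts, of which 1 each is shown, chosen after the matches were known: for Erg and Tal1 a start with a GATA match, and for Gata2 the start richer in G and C.
Klf1, chr8:84901732-84901981, plus strand: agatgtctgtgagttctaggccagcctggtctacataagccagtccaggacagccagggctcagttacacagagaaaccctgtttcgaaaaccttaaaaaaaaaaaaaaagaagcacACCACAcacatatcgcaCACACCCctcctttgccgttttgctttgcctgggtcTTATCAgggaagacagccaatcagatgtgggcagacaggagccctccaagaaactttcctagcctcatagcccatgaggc
Gata1, chrX:7967911-7968160, minus strand: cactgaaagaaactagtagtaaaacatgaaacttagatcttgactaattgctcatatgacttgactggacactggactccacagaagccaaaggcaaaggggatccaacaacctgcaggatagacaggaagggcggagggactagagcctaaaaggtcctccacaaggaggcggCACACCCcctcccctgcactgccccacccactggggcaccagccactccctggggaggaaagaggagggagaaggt
Tal1, chr4:115056176-115056425, plus strand: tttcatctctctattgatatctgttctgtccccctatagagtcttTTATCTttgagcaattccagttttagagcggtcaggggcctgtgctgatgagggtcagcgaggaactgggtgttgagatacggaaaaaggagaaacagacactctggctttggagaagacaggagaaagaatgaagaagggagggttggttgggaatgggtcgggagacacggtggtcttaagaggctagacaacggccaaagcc
Erg, chr16:95459349-95459598, minus strand: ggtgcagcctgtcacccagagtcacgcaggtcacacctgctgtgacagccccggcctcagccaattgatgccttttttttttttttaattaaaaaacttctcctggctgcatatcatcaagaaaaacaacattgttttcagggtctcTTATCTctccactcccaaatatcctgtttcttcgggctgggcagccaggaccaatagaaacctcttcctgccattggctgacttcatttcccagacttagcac
Myb, chr10:21160985-21161234, minus strand: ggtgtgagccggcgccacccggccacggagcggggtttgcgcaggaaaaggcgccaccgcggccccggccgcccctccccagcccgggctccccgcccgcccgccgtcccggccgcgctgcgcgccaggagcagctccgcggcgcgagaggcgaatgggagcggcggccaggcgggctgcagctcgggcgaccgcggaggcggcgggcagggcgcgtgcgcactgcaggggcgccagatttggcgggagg
Gata2, chr6:88198414-88198663, plus strand: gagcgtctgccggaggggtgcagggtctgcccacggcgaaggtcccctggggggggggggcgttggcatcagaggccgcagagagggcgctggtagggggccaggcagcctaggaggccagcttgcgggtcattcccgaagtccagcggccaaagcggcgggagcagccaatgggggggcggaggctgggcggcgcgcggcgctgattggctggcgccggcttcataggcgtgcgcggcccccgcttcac

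Klf1 holds a TGATAA match that begins 80 bases before the start, a CACACCC match at 116 and a TGTGGT match at 133. Gata1 holds CACACCC at 76, the Tal1 start shown holds AGATAA at 205 and the Erg start shown holds AGATAA at 103. The starts of Tal1 and Erg that are not shown hold none of the 7 motifs. Meis1, which was 1.29-fold higher on day 4, holds CACACCC at 171 and TGTGGT at 166. Neither Myb nor Gata2 nor Runx1 holds any of the 7 motifs, so matches were found in promoters of factors that were lower on day 4 and of 1 that was not, and were missing from both kinds. Of all 32851 promoters in the table, 26.5% hold at least 1 of the 4 GATA motifs, 6.93% CACACCC, 14.0% TGTGGT and 4.46% TGAGTCA. The complex of TAL1 and GATA1 binds part of an E-box spaced from a GATA core, which was searched as CTG, any 8 or 9 bases, then GATA. The form with 8 was found in Klf1, where it overlaps the TGATAA match, and in Tal1, where it begins 140 bases before the start and is not in capitals, and in 1.91% of all promoters, and that with 9 in 0 of the 13 and in 2.16% of all. The promoters shown also differed in base composition: G and C made up 81.2% of that of Myb and 74.0% of that of Gata2. The share was 49.2% for Klf1, 54.0% for Gata1, 48.8% for Tal1 and 47.2% for Erg. The median over all promoters was 52.4%. For Gata2, Tal1 and Erg these shares belong to the chosen starts, so the contrast depends in part on that choice. The start not shown had 67.2% for Gata2 and 62.8% for Tal1, and those of Erg had 48.8% or less. The Runx1 starts had 45.6% and 67.6%, and Meis1 had 59.6%. The motifs are matches of letters, and binding was not measured here.

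Genes whose proteins work with the factors were followed as a list of 23 partners and cofactors, of which 22 were measured in the first step. There 4 were lower and 1 higher, with a median of -0.40. The repressor gene Bcl11a was 4.71-fold lower, the gene for the TAL1 corepressor ETO2, Cbfa2t3, 4.46-fold, the acetyltransferase gene Ep300 2.35-fold, and Zfpm1, whose protein FOG1 binds GATA1, 2.33-fold. The homeobox gene Hoxa9, a partner of Meis1, was higher, by 1.14 on the log2 scale, but not by 2-fold with the mean over probe sets. The other 17 partners were within 2-fold, among them further members of the TAL1 complex: the adaptor gene Ldb1 (0.00 on the log2 scale), the E-protein genes Tcf3 (0.18) and Tcf12 (0.32), Ssbp3 (-0.15) and the repressor gene Gfi1b (-0.88).

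From day 1 to day 7, 10 of 22 partners were lower (9 after median scaling) and 0 were higher, with a median of -0.93. Cbfa2t3 was at least 16.4-fold lower, Bcl11a at least 14.3-fold and Zfpm1 4.37-fold. Lyl1, the closest relative of Tal1, read 1440, 870, 209 and 477 on days 1, 4, 5 and 7. Lyl1 was 4.17-fold lower in the middle step and 2.28-fold higher in the last, and day 5 was its lowest array, as for Lmo2.

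The relatives of the factors in the same gene families were a list of 26. Of 18 measured from day 1 to day 7, 9 were lower (8 after median scaling) and 1 was higher (5 of 25 with a floor at the 25th percentile of all values, 0 with the mean over probe sets), with a median of -0.93. Ets1 was 7.70-fold lower, the Lmo2 relative Lmo1 at least 5.85-fold, and Runx3 4.82-fold, while the one higher relative, Ets2, was 2.48-fold higher. Ets2 had signals of 1165, 1092, 2005 and 2893 on days 1, 4, 5 and 7, so that the ETS genes Erg and Ets2 ended on opposite sides. Gata3 and Gata5 were under the floor on all 4 arrays. In the MYB family, Mybl2, a gene of dividing cells, had signals of 140, 101, 175 and 140, with no day more than 2-fold from another, while Myb was lower at each step.

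**Figure D3:**
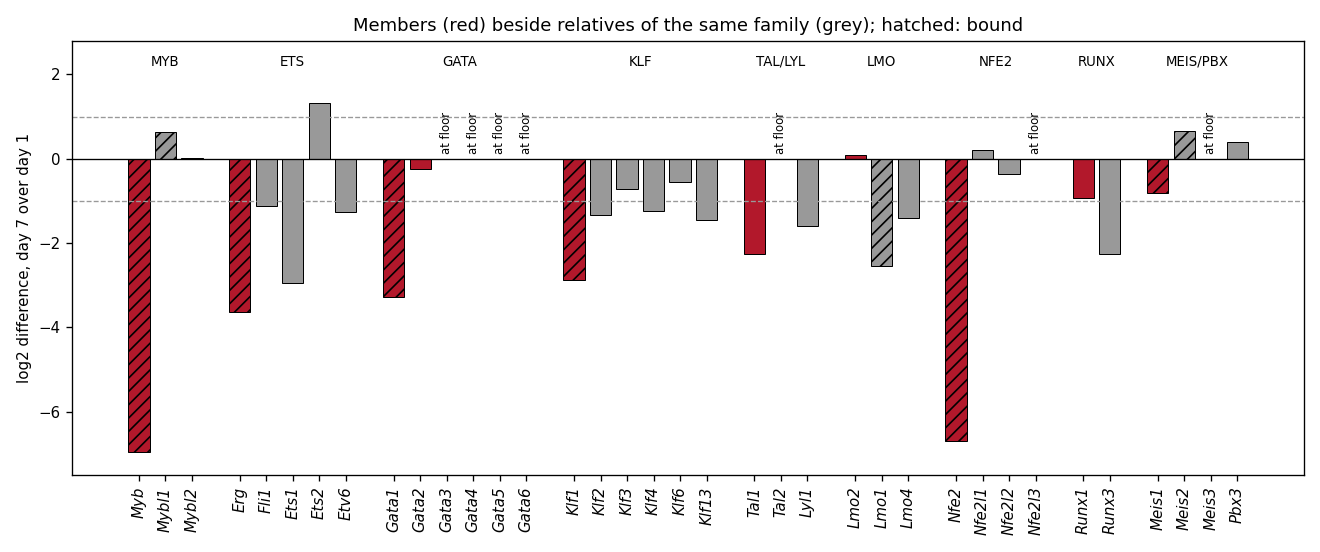
Log2 difference on day 7 over day 1 for the 10 factors (red) and their family relatives (grey; Lyl1 comes from the list of partners), from 1 array each; hatched bars are bounds and dashed lines mark 2-fold. Myb and Nfe2 reach -6.95 and -6.69, and Ets2, at 1.31, is the one bar above the upper dashed line.

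Genes of the cells in which these factors act were lower at different steps. In the first step 14 of 19 measured erythroid genes were lower and 1, Tfrc, was higher, with a median of -4.22 in which 11 of 19 values were bounds. The haem enzyme gene Alas2 was at least 256-fold lower, Slc4a1, which encodes the red cell anion exchanger, at least 202-fold and Trim10 at least 66.3-fold. The list had 19 of 21 genes above the floor on day 1 and 8, 7 and 7 later, with summed signals of 42831, 9092, 9887 and 8728, of which the transferrin receptor gene Tfrc, also expressed by dividing cells, gave 3569, 7794, 7130 and 6081. The other 20 genes summed to 39262, 1297, 2757 and 2648. Of these sums Car2 gave 7267, 656, 2107 and 2049, most of the signal on days 5 and 7. Klf1 was under the floor from day 4 on. The part of erythroid cells in the signal of the factors was not tested. In such bulk samples, fewer cells of a type and less RNA per cell cannot be told apart.

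Megakaryocyte and platelet genes followed another course. In the first step 0 of 14 were lower and 0 higher (1 after quantile normalization), with a median of 0.28, while Nfe2 was already 7.43-fold lower and Gata1 2.42-fold. In the middle step 11 of 14 were lower and 0 higher, with a median of -1.93. Rab27b was 4.87-fold lower, the glycoprotein gene Gp5 4.81-fold and the von Willebrand factor gene Vwf 4.64-fold. In the last step 10 of 13 were lower (9 after either other scaling) and 0 higher, with a median of -1.69. A floor at the 60th percentile of all values gave 5 of 12 and a median of -0.93, and one at the 25th percentile 12 of 14 and -2.09. All 14 genes were above the floor on days 1 and 4, 13 on day 5 and 9 on day 7, and their summed signal was 19793, 24532, 15927 and 8782. Pf4, which encodes a chemokine of platelet granules, gave 91.4% of the day 7 sum and was within 2-fold of day 1 there, at -0.10 on the log2 scale. The other 13 genes summed to 11164, 13542, 4056 and 754. Nfe2 and Gata1 were lower by 2-fold in the first step and again in the middle one. The part of megakaryocytes in the signal of the factors was not tested.

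How many stem and progenitor genes were called lower depended on the floor. Of 15 measured in the first step, 8 were lower and 1 higher, with a median of -1.10. The stem cell surface gene Prom1 was 11.5-fold lower, the granulocyte factor gene Gfi1 9.18-fold and the receptor gene Flt3 5.59-fold. In the middle step 3 of 15 were lower, Gfi1, Prom1 and the stem cell factor receptor gene Kit, at least 3.11-fold, 3.01-fold and 2.47-fold. The list had 15 of 17 genes above the floor on day 1 and 14, 10 and 6 later, with summed signals of 7558, 4029, 3297 and 2211. Of these Hhex gave 1410, 1133, 838 and 937, and the other 16 genes summed to 6147, 2896, 2459 and 1274. Sox4 gave 1989, 1784, 1724 and 909 of the latter, most of the signal on day 7. In the last step 0 of 10 were lower. With a floor at the 25th percentile the 3 steps gave 9 of 17, 5 of 16 and 8 of 16 lower, and with one at the 60th percentile 5 of 14, 1 of 8 and 0 of 5. As for the other lists, the part of these cells in the signal of the factors was not tested.

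**Figure D4:**
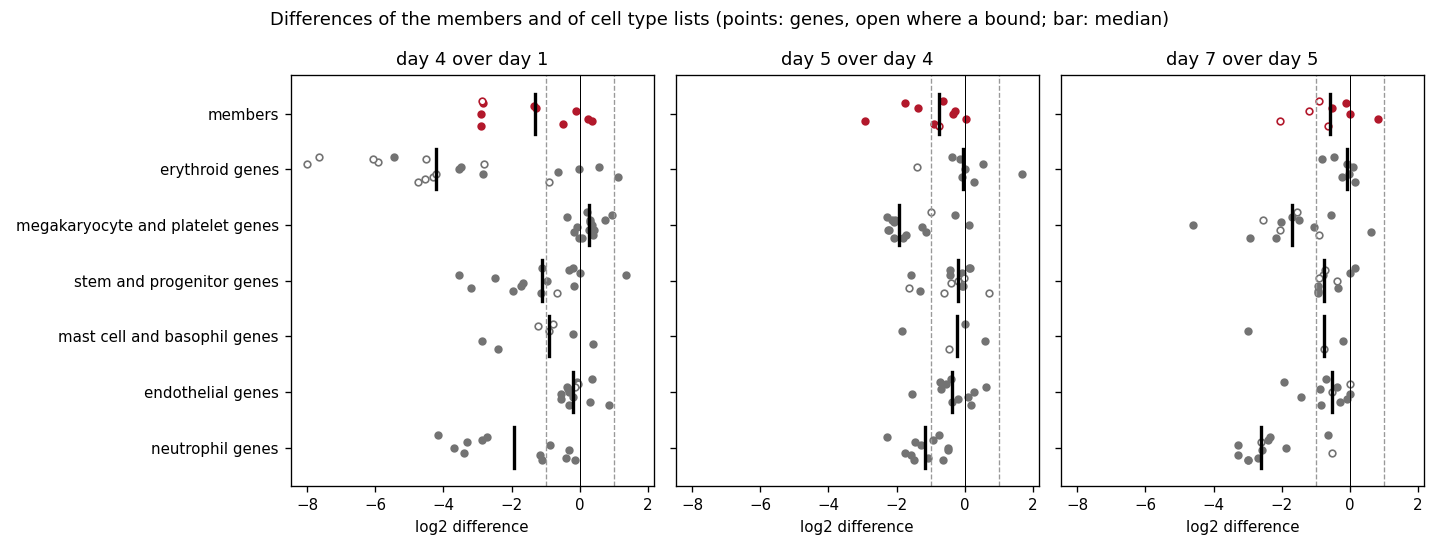
Log2 differences of the 10 factors (red) and of 6 lists of cell type genes (grey) at the 3 successive steps, from 1 array per day; each point is a gene, open points are bounds, bars are medians and dashed lines mark 2-fold. The erythroid median is -4.22 on day 4 over day 1, whereas the megakaryocyte and platelet median is 0.28 there and -1.93 and -1.69 at the later steps.

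Other cells of marrow that use the same factors were checked by their markers. Mast cells and basophils use Gata2. Of 13 of their genes on the array 7 were above the floor on day 1 and 4, 3 and 2 later, and their summed signal was 3844, 2639, 2671 and 1817. Mitf, a factor of mast cells that osteoclasts and macrophages also express, gave 92.2% of the day 7 sum, and the other 12 genes summed to 2363, 708, 748 and 142. The histidine decarboxylase gene Hdc was 7.28-fold lower in the first step and the protease gene Cpa3 5.23-fold, whereas the basophil protease gene Mcpt8 read 451, 397, 603 and 75.9. The mast cell genes Cma1, Mcpt4, Tpsb2, Tpsab1 and Mrgprb1 were under the floor on all 4 arrays. Endothelial cells express Erg, Tal1, Lmo2 and Gata2. Of 15 endothelial genes 13 were above the floor on day 1 and 11, 11 and 9 later, with summed signals of 1706, 1636, 1282 and 773. In the first step 0 of 13 endothelial genes differed by 2-fold (1 of 15 with a floor at the 25th percentile), with a median of -0.20, and in that step Erg was 7.39-fold lower. The part of mast cells and endothelial cells in the signal of the factors was not tested.

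Neutrophil genes were lower at every step. Of 12, 8, 7 and 10 were lower at the successive steps, with medians of -1.94, -1.18 and -2.60. All 12 were above the floor on the first 3 arrays and 10 on day 7, and their summed signal was 120038, 68447, 37344 and 5370. Nfe2 and Myb, which immature granulocytes also express, were lower on the same 3 steps, and the part of these cells in that was not tested. B cell genes had 9, 8, 5 and 3 of 9 above the floor, with summed signals of 8060, 5002, 2728 and 2812. Blnk, an adaptor gene of B cell receptor signalling that was within 2-fold of day 1 on day 7, gave 91.2% of the last sum, and the other 8 genes summed to 5984, 2179, 668 and 248. Stromal genes had 8, 10, 10 and 10 of 11 above the floor, and summed signals of 2018, 27823, 36891 and 25022.

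Genes with the most similar course were sought for each factor above the floor on at least 2 arrays, among genes above the floor on the same arrays. Likeness was the root mean square difference between log2 signals centred on each gene's mean over the 4 arrays, where 0 means the same course. Signals under the floor had been raised to it, so a gene's arrays under the floor were equal by construction. Values compare only between factors above the floor on the same arrays. For Nfe2 the 3 closest of 263 genes were Itgb2l (0.09), Chil1 (0.14) and Olfm4 (0.24), and Chil1 was also the closest to Myb (0.35), before Adgre4 (0.36) and Pou2af1 (0.44). Between themselves Myb and Nfe2 differed by 0.47. Olfm4 is a gene of neutrophil granules and Pou2af1 a gene of B cells.

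For Gata1 the closest were P2rx1 (0.06), a receptor gene of platelets, Tuba8 (0.06) and Ikzf2 (0.17). P2rx1 read 331, 122, 51.5 and 19.3, beside 317, 131, 50.9 and 17.7 for Gata1. For Erg they were Ifi213, D13Ertd608e and Nlrp12 (0.05 to 0.08), all at the floor on days 5 and 7. Their likeness to Erg thus rests on days 1 and 4 alone. For Meis1 they were Edn1, Hdgfl3 and Prrt4 (0.12 to 0.16). For the 4 factors above the floor on all arrays, 10033 genes could be compared and the closest lay at 0.04 or less: Kbtbd7 for Tal1, Crb3 for Lmo2, Cdc42bpa for Gata2 and Stag2 for Runx1. With 4 arrays many genes share a course, and these likenesses describe the arrays only.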

How the data were processed

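Total RNA (250 ng, Trizol then RNeasy, per the labels' protocols) was labelled as biotinylated cRNA and hybridised to 1 Affymetrix mouse array per day. The authors deposited linear intensity values, 1 per probe set. Per the submitters' processing notes, GCOS 1.4 and MAS5 were used by the authors; their scaling target is unknown here, and detection calls were not used. Precision is limited by having 1 array per day.

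Control probe sets (64) were left out. Of the other 45037, 34945 had 1 gene symbol in the platform annotation, 932 several and 9160 none; genes were named from the first kind alone. For each gene the probe set brightest on average (log2) was used, and all probe sets of the 10 factors are reported. Signals under the floor were set to it, and 4 comparisons were made on the log2 scale. Positions and sequences are from RefSeq (GRCm38.p6). Alternatives were other floors, 16 added to each signal with no floor, and quantile normalization. Others were scaling to the same median of probe sets above the floor on every array, and the mean over probe sets. The last left out probe sets with names ending in _x_at or _s_at. Named genes are all 10 factors, up to 3 genes with the largest difference of each list in the comparison described, and the 3 most similar genes per factor. The neutrophil, B cell, stromal, endothelial and macrophage lists are given by counts and sums. Zfpm1, Hoxa9, Lyl1, Ets2, Mybl2, Gata3, Gata5, Tfrc, Car2, Calcr, Mcpt8, Pf4, Mitf, Blnk, Hhex, Sox4, Ldb1, Tcf3, Tcf12, Ssbp3, Gfi1b and the mast cell genes at the floor were named after their values were seen. The members and lists were chosen with earlier results of these data known. The calling was tested on simulated data. Calculations used Python 3.11.15, numpy 2.4.6, pandas 2.3.3 and matplotlib 3.10.9.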

Additional observations from a re-analysis of the deposited data

How the results depend on the processing

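Of 255 values of single factors under the 7 alternatives, 247 kept their side of 2-fold and 8 did not, and 0 called values changed sign. Only differences with a value both in the main setting and under the alternative are among the 255. The counts of lower factors on day 4 over day 1 and day 7 over day 1 were 6 under all 7 alternatives. Leaving out _x_at and _s_at probe sets could change no factor, because the probe set used for each has neither ending. The mean over probe sets could likewise change no factor with 1 probe set. On day 7 over day 5 the lower factors were bounds, which move with the floor by construction. There 2 factors were lower in the main setting and 5 with a floor at the 25th percentile of all values (8.43). The count was 0 with a floor at the 60th percentile (68.9), 1 with the mean over probe sets and 3 with 16 added. The median of the factors, -0.59 in the main setting, was -0.90 and -0.11 with these floors, and on day 7 over day 1 it was -3.20 with the lower floor. With median scaling 1 factor, Lmo2, was higher on day 7 over day 5. Gata1 on day 5 over day 4 was -0.92 on the log2 scale with the higher floor, short of 2-fold, and Erg was -1.12 with the lower one, past it. No paired analysis was possible because each group holds 1 array. With 1 array per day, no value has an error that covers variation between cultures.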
